A study of Rattus norvegicus with 17 samples.

Results

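Cholesterol handling in sensory neurons was followed through 29 genes, chosen by name from the pathway. They are 18 enzymes of synthesis, 4 sensors and regulators, 3 genes of uptake and intracellular transport, and 4 of efflux and storage. All 29 were found among the 32883 genes of the counts, and all 29 passed the filter on low counts in the comparison of neuron groups.

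The counts came from single neurons of the dorsal root ganglia, the clusters of sensory nerve cells beside the spinal cord, of naive adult male Sprague-Dawley (SD) rats of about 200 g. The L4-L5 lumbar ganglia of both sides were dissociated and plated, and neurons were picked singly by mouth pipette (one protocol speaks of fluorescently labeled cells) and amplified with a modified Smart-seq2 method in which each RNA molecule carries a unique molecular identifier (UMI). The labels put the 17 batches in 1 group with no treatment or genotype compared, so neurons were compared with one another within batches. Plating lasted 15 minutes or 72 hours in the protocols, with at least 5 rats per time point. No label says which batch belongs to which time or which rats, so short and long culture cannot be told apart. The p-values measure how the differences between gates vary from batch to batch, and this spread may be technical.

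The file of batch 21 held the same counts as batch 20, so batch 21 (40 cells by its label) was not analysed here and 16 batches with 1040 cells were. At least 2000 genes were detected in 967 cells, with a median of 139374 UMIs and 8302 genes, and 959 of them (99.2%) held a UMI of at least 8 of 10 neuron markers. Among glial markers, Kcnj10 had a UMI in 0.103% of cells and Sox10 in 14.3%, while Glul (93.6%), S100b (85.6%) and Mbp (77.2%) were seen in most cells. Cells were gated by marker genes, each needing at least 20 CPM (UMI counts scaled to the same total in every cell) and 2 UMIs in the cell. The gates were Sst with Nppb (peptides known from itch neurons), Clmp (an adhesion protein), Th (tyrosine hydroxylase), Ntsr1 with Chrna3 (a neurotensin receptor and a nicotinic receptor subunit), Gzmbl3 with Lpar3 (a granzyme-like gene and a lysophosphatidic acid receptor), Trpm8 (the cold-sensing channel), Nmu with Lad1 (neuromedin U and ladinin) and Pvalb with Vsnl1 (2 calcium-binding proteins). Single gates took 460 cells, 161 cells passed several gates and entered none, and 346 passed no gate. UMIs were added up per batch and gate where a batch held at least 3 such cells. This gave 15 sums of Clmp cells, 11 of Sst+Nppb, 10 of Ntsr1+Chrna3, 8 of Gzmbl3+Lpar3 and 5 of Th, whereas Trpm8 (2 sums), Nmu+Lad1 (1 sum) and Pvalb+Vsnl1 (no sum) were too few for this comparison. Depth differed between the gates, with median UMIs per cell of 132785 in Sst+Nppb, 194169 in Clmp, 230804 in Th, 329685 in Ntsr1+Chrna3 and 381095 in Gzmbl3+Lpar3.

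Cells make cholesterol from acetyl-CoA through the mevalonate pathway, which leads by way of isoprenoid units and squalene to lanosterol, and a second series of steps trims lanosterol to cholesterol. Sterol levels in the endoplasmic reticulum set the traffic of SCAP with the transcription factor SREBP2, which INSIG proteins hold back and which switches the synthesis genes on together. Neurons need cholesterol for membrane and axon growth, take part of it from lipoproteins carrying apolipoprotein E, and export it through ABC transporters.

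Promoters of 4 members called higher in both Clmp and Sst+Nppb cells and of 1 called higher in Sst+Nppb but not Clmp cells are shown first. They are the 250 bases before the transcription start in RefSeq's GRCr8 build, read 5′ to 3′ on the gene's strand, with each CCAAT box (or its complement ATTGG), the site bound by the factor NF-Y, in capitals. The counts themselves were made on Rnor_6.0, and no coordinates of the 2 builds were mixed. Hmgcs1 lies at chr2:53382054-53382303 (plus strand), Idi1 at chr17:66547525-66547774 (minus strand), Msmo1 at chr16:29746863-29747112 (plus strand), Insig1 at chr4:8057770-8058019 (minus strand) and Abca1 at chr5:72596474-72596723 (minus strand).
Hmgcs1: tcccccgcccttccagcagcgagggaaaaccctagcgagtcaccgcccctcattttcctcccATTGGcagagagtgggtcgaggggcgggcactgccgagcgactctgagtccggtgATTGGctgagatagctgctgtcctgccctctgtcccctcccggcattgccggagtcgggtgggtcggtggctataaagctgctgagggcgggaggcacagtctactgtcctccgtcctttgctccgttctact
Idi1: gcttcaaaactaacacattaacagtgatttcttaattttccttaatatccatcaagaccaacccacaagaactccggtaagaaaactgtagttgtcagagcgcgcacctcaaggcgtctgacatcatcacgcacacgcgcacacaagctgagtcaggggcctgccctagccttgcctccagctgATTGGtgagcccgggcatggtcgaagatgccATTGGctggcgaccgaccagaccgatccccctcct
Msmo1: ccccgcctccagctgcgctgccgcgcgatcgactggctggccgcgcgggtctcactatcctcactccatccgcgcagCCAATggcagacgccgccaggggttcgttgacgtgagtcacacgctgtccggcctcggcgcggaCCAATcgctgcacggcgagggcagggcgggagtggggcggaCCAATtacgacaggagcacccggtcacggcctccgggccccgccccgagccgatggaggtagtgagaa
Insig1: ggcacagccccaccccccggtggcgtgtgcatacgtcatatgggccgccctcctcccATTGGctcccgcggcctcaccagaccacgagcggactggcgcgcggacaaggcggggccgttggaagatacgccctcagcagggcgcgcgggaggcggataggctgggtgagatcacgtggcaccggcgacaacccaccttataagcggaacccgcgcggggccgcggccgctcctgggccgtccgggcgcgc
Abca1: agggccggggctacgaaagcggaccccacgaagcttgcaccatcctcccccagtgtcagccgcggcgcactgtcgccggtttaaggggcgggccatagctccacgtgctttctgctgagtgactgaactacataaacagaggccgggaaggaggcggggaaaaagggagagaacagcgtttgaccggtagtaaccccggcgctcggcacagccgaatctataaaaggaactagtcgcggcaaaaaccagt

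The promoter of Msmo1 holds 3 CCAAT boxes, those of Hmgcs1 and Idi1 hold 2 each, that of Insig1 holds 1, and that of Abca1 holds none. That of Cyp51, which was called in the same gates as Msmo1, also holds none, and that of Npc2, called in no gate, holds 3. That of Sc5d, which like Abca1 was called higher in Sst+Nppb but not Clmp cells and is not shown, holds 1. RefSeq's table had an entry for 24 of the 29 members (26 promoters, since Apoe has 3) and none for Pmvk, Fdft1, Sqle, Stard4 and Abcg1. CCAAT, searched on both strands, stood in 12 of the 15 promoters of synthesis enzymes (80.0%) and in 6 of the 11 of other members (54.5%). Over the 26 promoters of members it stood in 18 (69.2%), against 34.0% of all 33469 promoters of the same length. The boxes of Hmgcs1 start 188 and 133 bases before the transcription start, those of Idi1 66 and 35, those of Msmo1 173, 109 and 68, and that of Insig1 193. The Sp1 site GGGCGG stood in 13 of the 15 (86.7%) and in 30.5% of all promoters. The SREBP site TCACNCCAC, searched in this single spelling, stood in 0 of the 26 and in 0.974% of all. These are matches of letters, and none of the 3 motifs contains another. Whether they bear on the differences between gates was not tested.

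Each gate was then compared with the mean of the other 4 gates by edgeR's quasi-likelihood test, with batch as a term and Benjamini-Hochberg adjustment over 14523 genes; the 13 gate genes were left out of every count. Levels below are CPM scaled by edgeR's TMM factors. The 5 comparisons share the same sums, so their counts are not independent. A test for any difference among the 5 gates passed for 17 of the 29 members, among 23.2% of all genes. In Clmp cells 15 members were higher, where 10.3% of all genes were, and 0 were lower, where 6.70% were. In Sst+Nppb cells 8 were higher against 3.31% of all genes and 0 lower against 1.36%. In Ntsr1+Chrna3 cells 0 were higher against 0.613% and 4 were lower against 0.400%. In Gzmbl3+Lpar3 cells 3 were higher against 6.57% and 3 lower against 6.05%. In Th cells 0 were higher against 0.289% and 1 was lower against 0.276%. For the 4 counts of 0, edgeR gave 1 member lower in Clmp, 0 lower in Sst+Nppb, 1 higher in Ntsr1+Chrna3 and 1 higher in Th cells at an unadjusted p under 0.05, and DESeq2 called 0 in each. Of the 10 neuron markers 4 were higher and 0 lower in Clmp cells, with a summed level of 8611 to 13272 CPM (median 9709), and 0 were higher and 4 lower in Gzmbl3+Lpar3 cells, at 5702 to 8509 (median 6936), while 0 were called in the other 3 gates. Their part in the members' differences was not tested. The shares of members called in Clmp (higher), Sst+Nppb (higher) and Ntsr1+Chrna3 (lower) cells are therefore above those of all genes, while a share of 3 in 29 in each direction in Gzmbl3+Lpar3 cells is close to the background. The median log2 difference of the 18 synthesis genes was 0.46 in Clmp cells, 0.21 in Sst+Nppb, -0.15 in Gzmbl3+Lpar3, -0.32 in Ntsr1+Chrna3 and -0.37 in Th, against 0.06, 0.02, -0.03, 0.05 and -0.06 over all genes.

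**Figure D1:**
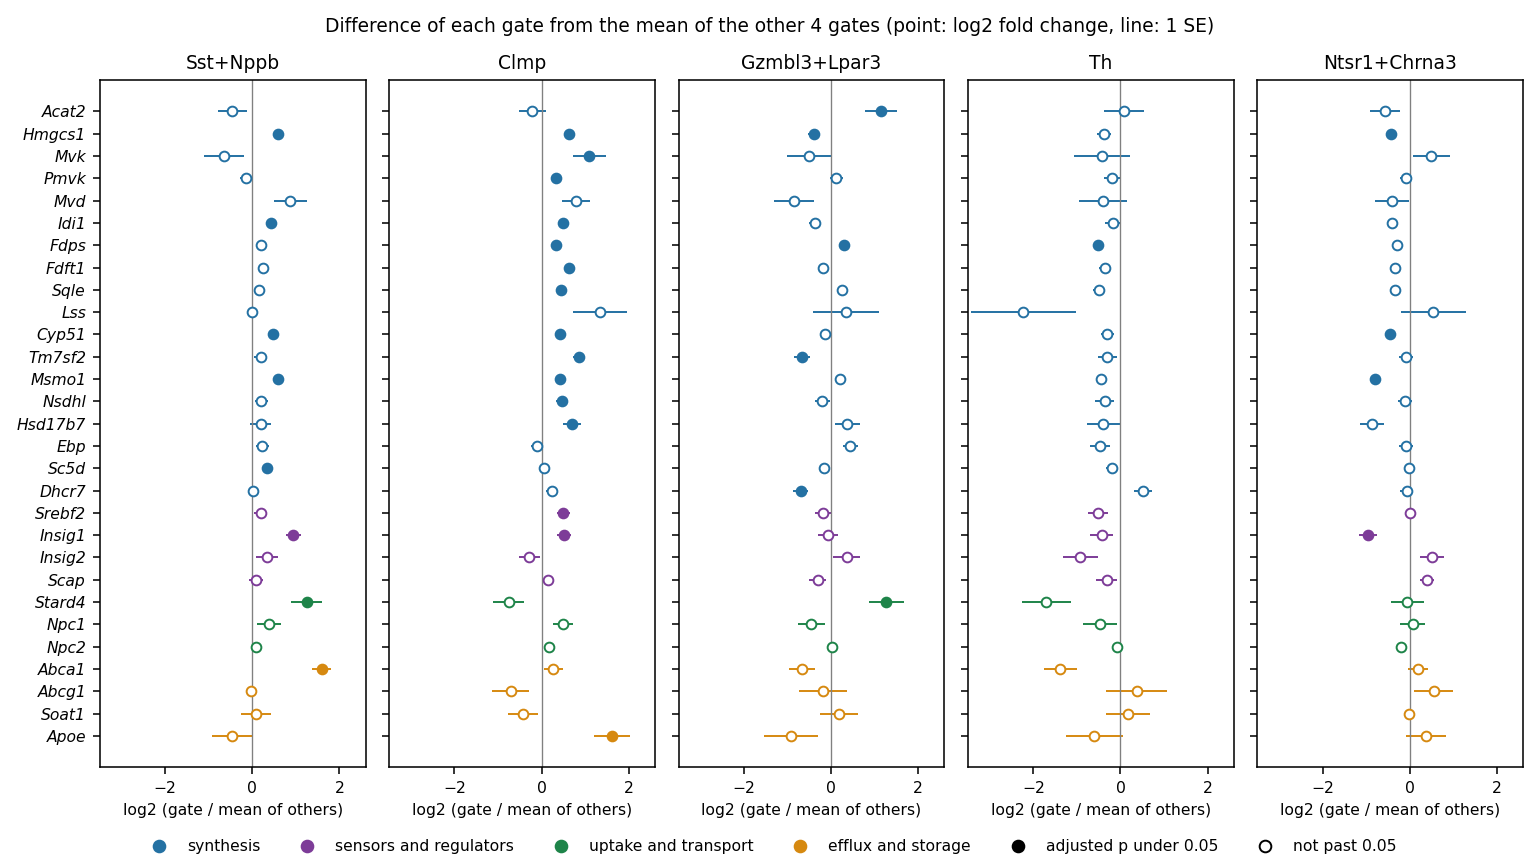
Each panel is 1 gate and each point 1 member, with the log2 difference of the gate from the mean of the other 4 gates on the x axis, 1 SE as the line, the role as the colour and filled points for an adjusted p under 0.05. The synthesis enzymes lie mostly to the right of 0 in Sst+Nppb and Clmp and mostly to the left in Th and Ntsr1+Chrna3, with 12 filled points in Clmp and 1 in Th.

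The 34 calls of a member in a gate differ in how far they held. Of these, 5 passed the threshold under all 8 other ways of processing and whichever of the 16 batches was left out. The 5 are Idi1 and Tm7sf2 in Clmp cells and Msmo1, Insig1 and Abca1 in Sst+Nppb cells. Leaving out batches alone ended 14 of the 34 calls, and 1 call (Fdps in Gzmbl3+Lpar3 cells) turned its direction under another setting. The setting that cost most was a gate of at least 50 CPM, which kept 14 of the 34 calls and left 3 members called in Clmp and 0 in Ntsr1+Chrna3 cells. Thinning every cell to 30000 UMIs kept 20 of the 31 calls it could test, assigning cells of several gates to 1 gate kept 21 of 34, sums of at least 5 cells kept 18 of 33, and removing cells rich in glial RNA kept 23 of 34. The number of members called in Sst+Nppb cells was 5 without batch 25, in Ntsr1+Chrna3 cells 2 without batch 29 or 34, in Gzmbl3+Lpar3 cells 1 without batch 26 and 3 without batch 20, 24 or 28-3, and in Th cells 0 without batch 25, 26 or 34 and 2 without batch 24.

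The early, mevalonate part of the pathway was led by Hmgcs1, the synthase that forms HMG-CoA. Its level ran from 303 to 629 CPM (median 391) in the 15 Clmp sums and from 127 to 688 (median 445) in the 11 Sst+Nppb sums. It ran from 163 to 352 (median 213) in Ntsr1+Chrna3 and from 137 to 258 (median 203) in Gzmbl3+Lpar3, and the 5 Th sums stood at 127, 184, 242, 313 and 354. Every Clmp sum thus lay above every Gzmbl3+Lpar3 sum, and the Sst+Nppb sums spread over the range of the other gates. Hmgcs1 was higher in Clmp cells by 0.63 ± 0.09 on the log2 scale (SE, 1.54-fold, adjusted p = 2.17e-06, higher in 13 of 14 batches) and in Sst+Nppb cells by 0.58 ± 0.10 (adjusted p = 0.000195, 9 of 11 batches). It was lower in Ntsr1+Chrna3 cells (log2 -0.44 ± 0.11, adjusted p = 0.0382, 10 of 10 batches) and in Gzmbl3+Lpar3 cells (log2 -0.39 ± 0.13, adjusted p = 0.0399, 7 of 8 batches). Leaving out any of 6 batches ended the Ntsr1+Chrna3 call (adjusted p up to 0.121) and any of 11 the Gzmbl3+Lpar3 call (up to 0.268), and thinning every cell to 30000 UMIs gave adjusted p values of 0.137 and 0.214. The Clmp call ended with gates of at least 50 CPM (log2 0.30, adjusted p = 0.0792), and the call of Hmgcs1 in Sst+Nppb cells with cells of several gates assigned to 1 (log2 0.41, adjusted p = 0.0553).

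Idi1, the isomerase of the isoprenoid building blocks, was likewise higher in Clmp and Sst+Nppb cells. Its log2 difference was 0.50 ± 0.11 in Clmp cells (adjusted p = 0.000445, higher in 14 of 14 batches), with sums of 161 to 407 CPM (median 271), and 0.44 ± 0.11 in Sst+Nppb cells (adjusted p = 0.0141), with 190 to 371 (median 282). In Ntsr1+Chrna3 cells it stood at 97.3 to 214 (median 152), lower in 10 of 10 batches, and missed the threshold (adjusted p = 0.109). In Sst+Nppb cells its call ended without batch 25 (adjusted p = 0.0700) and with thinned cells (log2 0.12, adjusted p = 0.767). Fdps, which makes farnesyl pyrophosphate, was higher in Clmp cells (log2 0.32 ± 0.07, adjusted p = 0.000721) and lower in Th cells (log2 -0.52 ± 0.12, adjusted p = 0.0255, 5 of 5 batches). Its 5 Th sums stood at 462, 487, 504, 593 and 769 CPM, within the range of 371 to 791 (median 552) in Ntsr1+Chrna3 and overlapping the 634 to 996 (median 854) in Clmp. The Th call ended without batch 25 (adjusted p = 0.137), 26 (0.227) or 34 (0.158), with RLE scaling (0.0504) and with thinned cells (0.185). Fdps was also called higher in Gzmbl3+Lpar3 cells (log2 0.29 ± 0.09, adjusted p = 0.0286; 529 to 1079 CPM, median 782), yet it was higher in 4 and lower in 4 of 8 batches, and the call ended without batch 24 (0.0659), 26 (0.156) or 28-3 (0.115) and had a log2 difference of -0.02 with gates of at least 50 CPM.

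Among the low members of this stretch, Mvk (mevalonate kinase) ran from 1.59 to 8.66 CPM (median 3.86) in Clmp and from 0 to 6.23 (median 1.54) in Sst+Nppb, on 222 and 37 UMIs in all. It was called higher in Clmp cells (log2 1.09 ± 0.38, adjusted p = 0.0387, 13 of 14 batches), a call that ended when any of 10 batches was left out (adjusted p up to 0.0935). Acat2, the thiolase of the first step, ran from 2.83 to 37.4 CPM (median 11.8) in Gzmbl3+Lpar3 and from 0 to 16.9 (median 5.54) in Clmp. It was higher in Gzmbl3+Lpar3 cells (log2 1.15 ± 0.37, adjusted p = 0.0322, 8 of 8 batches), and any of 6 batches ended this (adjusted p up to 0.110). Pmvk (phosphomevalonate kinase) was higher in Clmp cells by 0.32 ± 0.11 (adjusted p = 0.0348, 13 of 14 batches), which any of 12 batches ended (adjusted p up to 0.110). Mvd, which makes the first isoprenoid unit, was called in no gate, with log2 differences of 0.79 ± 0.32 in Clmp and 0.87 ± 0.38 in Sst+Nppb. Acat2 and Fdps have near-identical copies in the rat genome (Acat2l1, a gene of its own in the counts, and several pseudogenes), as do Idi1 and Nsdhl, and how reads were shared between copies is not stated, so the counts of these 4 are uncertain.

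In the squalene steps, Fdft1 (squalene synthase) and Sqle (squalene epoxidase) were higher in Clmp cells. Fdft1 ran from 225 to 397 CPM (median 334) there and from 113 to 244 (median 199) in Ntsr1+Chrna3, with a narrow overlap. Its log2 difference in Clmp cells was 0.63 ± 0.09 (adjusted p = 3.87e-07, higher in 14 of 14 batches), and that of Sqle was 0.45 ± 0.08 (adjusted p = 3.38e-05, 13 of 14 batches). In Ntsr1+Chrna3 cells both were lower in 10 of 10 batches and missed the threshold, with adjusted p values of 0.0923 and 0.0505. Lss, lanosterol synthase, was near the floor, with 2 UMIs in all Th sums and 100 in the Clmp sums, and was called in no gate.

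Of the steps after lanosterol, Msmo1, the sterol methyl oxidase, separated the gates most. It ran from 327 to 697 CPM (median 491) in Sst+Nppb and from 335 to 584 (median 441) in Clmp, against 122 to 321 (median 222) in Ntsr1+Chrna3, so the Ntsr1+Chrna3 sums overlapped neither. Gzmbl3+Lpar3 lay between them at 279 to 491 (median 367), and the 5 Th sums stood at 206, 272, 301, 324 and 327. Msmo1 was higher in Sst+Nppb cells (log2 0.60 ± 0.08, adjusted p = 1.38e-06, 9 of 11 batches) and in Clmp cells (log2 0.43 ± 0.08, adjusted p = 3.49e-05, 14 of 14 batches). It was lower in Ntsr1+Chrna3 cells (log2 -0.80 ± 0.09, adjusted p = 4.75e-07, 10 of 10 batches), which held for every left-out batch, with thinned cells (adjusted p = 0.000168) and without cells rich in glial RNA (1.39e-05), and ended with gates of at least 50 CPM, where 3 sums of this gate were left (adjusted p = 0.175).

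Cyp51, the lanosterol demethylase, showed the same arrangement. It ran from 182 to 536 CPM (median 316) in Sst+Nppb, from 187 to 419 (median 303) in Clmp and from 123 to 246 (median 178) in Ntsr1+Chrna3, with all 3 ranges overlapping. Its log2 difference was 0.48 ± 0.10 in Sst+Nppb (adjusted p = 0.00102), 0.41 ± 0.09 in Clmp (adjusted p = 0.000407) and -0.46 ± 0.10 in Ntsr1+Chrna3 cells (adjusted p = 0.0165, lower in 9 of 10 batches). The last call ended without batch 29 (adjusted p = 0.0549) or 34 (0.0571).

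Tm7sf2, a sterol reductase of the same stretch, had its highest median in Clmp cells among the gates of this comparison. It ran from 66.0 to 196 CPM (median 152) there, from 32.9 to 139 (median 85.7) in Sst+Nppb and from 18.3 to 95.9 (median 58.1) in Gzmbl3+Lpar3. It was higher in Clmp cells (log2 0.85 ± 0.13, 1.80-fold, adjusted p = 3.94e-06, 12 of 14 batches) and lower in Gzmbl3+Lpar3 cells (log2 -0.66 ± 0.18, adjusted p = 0.0121, 8 of 8 batches), the second of which ended without batch 26 (adjusted p = 0.0797). In the further fit given below, Tm7sf2 was also called higher in Trpm8 cells (adjusted p = 0.0312). Nsdhl and Hsd17b7, which act with Msmo1 in removing the methyl groups at carbon C4 of the sterol, were higher in Clmp cells by 0.47 ± 0.14 (adjusted p = 0.0113) and 0.69 ± 0.21 (adjusted p = 0.0168). Sc5d, the desaturase before the last reduction, was higher in Sst+Nppb cells (log2 0.34 ± 0.09, adjusted p = 0.0188), a call that ended without batch 25 (adjusted p = 0.0758). Dhcr7, a terminal reductase, was lower in Gzmbl3+Lpar3 cells, at 19.1 to 89.6 CPM (median 62.9) against 46.3 to 163 (median 90.4) in Clmp, with a log2 difference of -0.70 ± 0.18 (adjusted p = 0.00604, 6 of 8 batches) that fell to -0.18 with thinned cells (adjusted p = 0.709). Ebp, the sterol isomerase, was called in no gate.

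**Figure D2:**
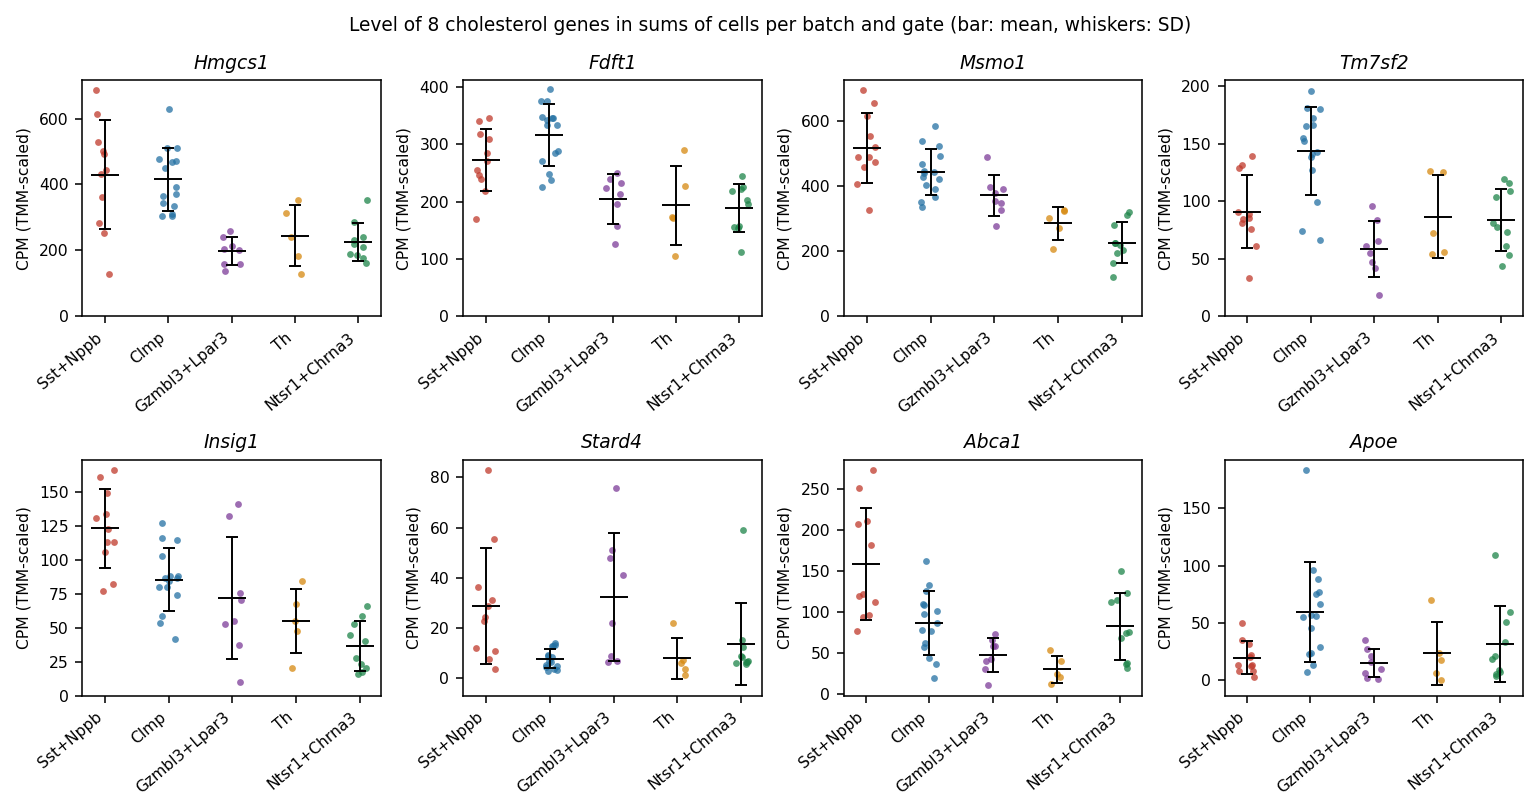
Each point is the level of 1 gene (CPM with TMM scaling) in 1 sum of cells of a batch, with gates along the x axis, a bar for the mean and whiskers for 1 SD. Msmo1 and Insig1 fall from Sst+Nppb to Ntsr1+Chrna3 cells without overlap between these 2 gates, Tm7sf2 is highest in Clmp cells, and Abca1 is highest in Sst+Nppb cells.

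Among the sensors, Insig1, which retains SCAP in the endoplasmic reticulum and is itself a target of SREBP2, moved with the enzymes. It ran from 76.9 to 166 CPM (median 123) in Sst+Nppb, from 41.4 to 127 (median 86.6) in Clmp, from 10.0 to 141 (median 63.0) in Gzmbl3+Lpar3 and from 15.9 to 66.1 (median 34.0) in Ntsr1+Chrna3, with Th sums of 20.4, 47.7, 55.3, 67.4 and 84.2. Every Sst+Nppb sum lay above every Ntsr1+Chrna3 sum. Insig1 was higher in Sst+Nppb cells (log2 0.94 ± 0.17, 1.92-fold, adjusted p = 0.000165, 11 of 11 batches) and in Clmp cells (log2 0.52 ± 0.16, adjusted p = 0.0148; 0.0522 without batch 33). It was lower in Ntsr1+Chrna3 cells (log2 -0.96 ± 0.20, 1.95-fold, adjusted p = 0.00522, 10 of 10 batches), a call that thinned cells ended (log2 -0.82, adjusted p = 0.0992). Srebf2, which encodes SREBP2, was higher in Clmp cells (log2 0.50 ± 0.14, adjusted p = 0.00656, 10 of 14 batches), at 62.5 to 168 CPM (median 94.1). Its sums in Sst+Nppb cells overlapped these, at 23.1 to 144 CPM (median 95.4). The Clmp call of Srebf2 ended with gates of at least 50 CPM, with assigned cells and with sums of at least 5 cells. Over all settings its log2 difference fell as low as 0.14 (adjusted p up to 0.714). Insig2 and Scap were called in no gate.

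Of the uptake and transport genes, Stard4, a cytosolic sterol carrier, differed. It ran from 3.78 to 82.8 CPM (median 24.2) in Sst+Nppb and from 6.38 to 75.8 (median 31.4) in Gzmbl3+Lpar3, but from 2.84 to 14.1 (median 6.73) in Clmp, and from 5.69 to 58.9 (median 7.50) in Ntsr1+Chrna3, where batch 34 held the 58.9. The ranges of all gates overlapped. Stard4 was higher in Sst+Nppb cells (log2 1.25 ± 0.35, adjusted p = 0.0286, 7 of 11 batches) and in Gzmbl3+Lpar3 cells (log2 1.27 ± 0.41, adjusted p = 0.0328, 6 of 8 batches). With thinned cells the first fell to 0.42 (adjusted p = 0.748) and the second rose to 2.08 (0.00559), and leaving out any of 6 and of 4 batches ended these calls (adjusted p up to 0.190 and 0.144). Npc1 and Npc2, the pair that moves cholesterol out of lysosomes, were called in no gate, and Npc2 ran from 354 to 589 CPM (median 456) in Ntsr1+Chrna3 and from 450 to 832 (median 588) in Clmp.

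Of the efflux and storage genes, Abca1, the transporter that loads cholesterol onto apolipoproteins, had the largest difference that held throughout. It ran from 77.5 to 273 CPM (median 122) in Sst+Nppb, from 20.2 to 163 (median 86.6) in Clmp, from 32.0 to 150 (median 75.4) in Ntsr1+Chrna3 and from 11.2 to 73.6 (median 50.8) in Gzmbl3+Lpar3, with Th sums of 11.9, 20.6, 24.6, 40.3 and 53.4. Every Sst+Nppb sum lay above every Gzmbl3+Lpar3 and Th sum. The log2 difference in Sst+Nppb cells was 1.59 ± 0.22 (3.00-fold, adjusted p = 2.74e-06, 10 of 11 batches), and it stayed between 1.26 and 1.69 over all alternatives. In Th cells it was -1.38 ± 0.38 (adjusted p = 0.0684, lower in 5 of 5 batches). In the further fit given below, Abca1 was also called higher in Nmu+Lad1 cells (adjusted p = 0.0129). Of 5 tested immune genes 2 were higher and 0 lower in Sst+Nppb cells. The summed level of all 8 immune genes ran from 8.30 to 125 CPM there, with C1qb at 0. It ran from 5.69 to 51.2 in Clmp, 4.56 to 74.6 in Ntsr1+Chrna3, 7.74 to 151 in Gzmbl3+Lpar3 and 2.17 to 95.8 in Th. The part of such RNA in the Abca1 difference and in the other Sst+Nppb calls was not tested. Abcg1, a second exporter, and Soat1, which esterifies cholesterol for storage, were called in no gate.

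Apoe, the apolipoprotein that satellite glia and macrophages secrete, was higher in Clmp cells. It ran from 6.87 to 183 CPM (median 55.7) there, from 2.99 to 50.2 (median 13.3) in Sst+Nppb, from 3.99 to 109 (median 19.5) in Ntsr1+Chrna3 and from 1.11 to 35.1 (median 12.8) in Gzmbl3+Lpar3, with Th sums of 0, 5.84, 17.4, 23.8 and 69.8. The log2 difference was 1.61 ± 0.41 (3.04-fold, adjusted p = 0.00359, 10 of 14 batches), and all ranges overlapped. Without cells holding over 200 CPM of 8 glial markers it was 0.90 (adjusted p = 0.141). Of 11 tested glial genes 1 was higher and 1 lower in Clmp cells, and their summed level of all 12 ran from 152 to 535 CPM in Clmp, 231 to 712 in Sst+Nppb, 255 to 467 in Ntsr1+Chrna3, 267 to 612 in Gzmbl3+Lpar3 and 275 to 470 in Th, with Kcnj10 at 0 in every gate but Sst+Nppb. Of 5 tested immune genes 3 were higher and 1 lower in Clmp cells, with Ptprc and C1qc at 0 there. Of 4 tested fibroblast genes 2 were higher in Clmp cells, where the sum of 5 fibroblast genes ran from 6.30 to 98.1 CPM. Within batches the level of Apoe and the glial sum had a median Spearman rho of 0.19 over cells, against -0.20 for Hmgcs1 and 0.03 for Abca1. The part of such RNA in the Apoe difference was not tested beyond this. Leaving out glia-rich cells removed 19 of the 202 Clmp cells. Of the 12 Clmp calls of synthesis genes 11 then passed, Mvk (adjusted p = 0.0753) being the exception, and the part of glial RNA in them was not tested.

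The summed level of the 18 synthesis genes was 3838 ± 541 CPM in Clmp (SD, 15 sums, 2980 to 4792), 3775 ± 754 in Sst+Nppb (SD, 11 sums, 2310 to 5177), 2940 ± 428 in Gzmbl3+Lpar3 (SD, 8 sums, 2278 to 3390), 2624 ± 537 in Th (SD, 5 sums, 1814 to 3311) and 2481 ± 387 in Ntsr1+Chrna3 (SD, 10 sums, 2031 to 3129). The means of Clmp and Sst+Nppb, of Gzmbl3+Lpar3 and Th and of Th and Ntsr1+Chrna3 lay within 1 SD of each other, and no test was made on a sum over chosen genes. Within batches the synthesis sum of Clmp cells was above that of Ntsr1+Chrna3 cells in 10 of 10 batches (median ratio 1.53, 1.24 to 1.85) and above that of Th cells in 5 of 5 (1.53, 1.23 to 1.71). That of Sst+Nppb cells was above Ntsr1+Chrna3 in 8 of 8 (1.44, 1.19 to 1.74), and Clmp and Sst+Nppb cells differed in no fixed direction (Clmp higher in 6 of 10, median ratio 1.04). Ntsr1+Chrna3 cells were below Gzmbl3+Lpar3 cells in 6 of 6 batches (0.870, 0.739 to 0.967).

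The 7 uptake, transport, efflux and storage genes spread less between gates, from 638 ± 81.9 CPM in Ntsr1+Chrna3 (SD, 10 sums) to 823 ± 144 in Sst+Nppb (SD, 11 sums), with 771 ± 106 in Clmp, 656 ± 69.7 in Gzmbl3+Lpar3 and 650 ± 136 in Th. Most of this is Npc2, and without it the sum ran from 101 ± 33.6 CPM in Th to 255 ± 73.6 in Sst+Nppb. The ratio of synthesis to uptake and efflux was 5.03 ± 0.727 in Clmp, 4.68 ± 1.14 in Sst+Nppb, 4.50 ± 0.626 in Gzmbl3+Lpar3, 4.22 ± 1.43 in Th and 3.91 ± 0.544 in Ntsr1+Chrna3, and the ranges of all 5 gates overlapped. Such a ratio compares summed molecules of different genes and is a description.

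**Figure D3:**
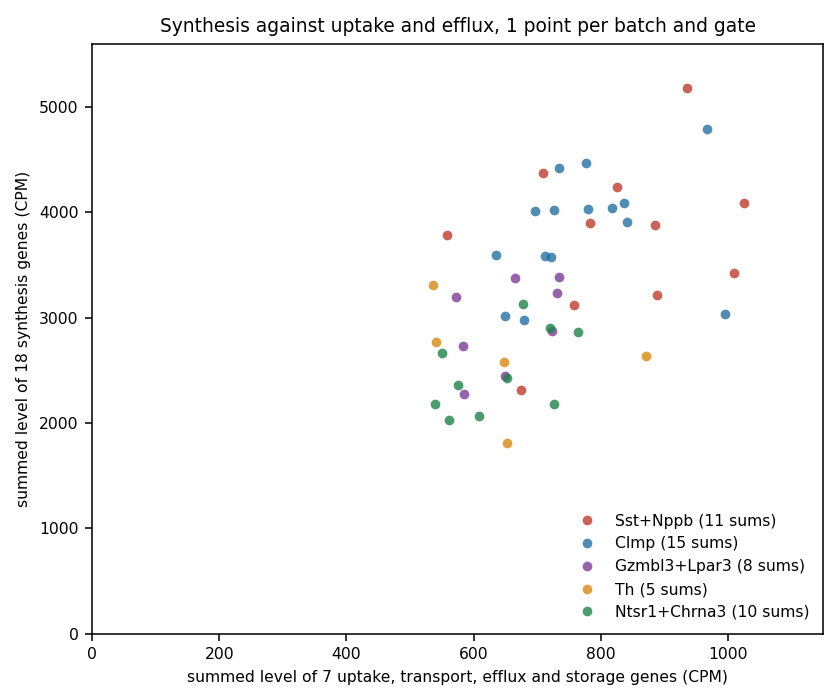
Each point is 1 sum of cells of a batch, coloured by gate, with the summed level of the 7 uptake, transport, efflux and storage genes on the x axis and of the 18 synthesis genes on the y axis (both in CPM). Ntsr1+Chrna3 sums lie at 2031 to 3129 CPM of synthesis genes, Th sums at 1814 to 3311 and Gzmbl3+Lpar3 sums at 2278 to 3390. Sst+Nppb and Clmp sums reach 5177 and 4792. On the x axis Ntsr1+Chrna3, Th and Gzmbl3+Lpar3 have close means of 638, 650 and 656 CPM.

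Synthesis genes also varied together from cell to cell. For each batch, Spearman correlations of log2(CPM + 10) were taken over its 32 to 93 cells and then averaged over the 16 batches, for the 10741 genes seen in at least 20% of cells, which include 17 of the 18 synthesis genes (Lss was below). These are descriptions with no test, since cells of a batch share a library and differ in depth. The median over the 136 pairs of synthesis genes was 0.28, with 131 pairs above 0 and batch medians from 0.18 to 0.39, against 0.16 over all pairs of genes. With every cell thinned to 30000 UMIs (771 cells) it was 0.15, against 0.02 over all pairs, and in gated cells with batch and gate means removed (419 cells in 13 batches) it was 0.26, against 0.11. The 119 pairs of a synthesis gene with an uptake or efflux gene had a median of 0.11, below that of all pairs, and -0.01 with thinned cells, where 57 of the 119 were above 0. The uptake and efflux genes differed in this, with mean rho from 0.00 (Apoe) to 0.17 (Stard4 and Npc1). The summed level of synthesis genes had a median rho of 0.17 with the UMIs of the cell and of -0.09 with the glial sum.

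The strongest pairs joined Hmgcs1 with Fdft1 (rho 0.59, and 0.56 with thinned cells), with Cyp51 (0.58 and 0.53) and with Idi1 (0.56 and 0.50). These 4 genes, Sqle and Msmo1 formed a block in which the weakest pair, Cyp51 with Msmo1, stood at 0.44 (0.39 with thinned cells). Insig1 stood at 0.36 (Sqle) to 0.48 (Msmo1) with these 6 genes, and at 0.28 to 0.37 with thinned cells, while Srebf2 reached 0.38 with Hmgcs1 and 0.33 with Cyp51 (0.25 and 0.21). Among all 10741 genes ordered by their mean rho with the synthesis genes, Fdft1, Idi1, Cyp51, Sqle, Hmgcs1, Msmo1, Sc5d and Nsdhl took ranks 1 to 8 and Insig1 rank 9. The order uses the synthesis genes themselves, so only the ranks of other genes are a comparison. Of genes that are not members, Aacs (acetoacetyl-CoA synthetase, mean rho 0.30), Acsl3 (a fatty acid CoA ligase, 0.29) and Acss2 (acetyl-CoA synthetase, 0.28) stood at ranks 10, 12 and 13, and Erg28, a scaffold of the sterol enzymes, and the desaturase Scd (0.27 each) at 16 and 18, names picked after their values were seen.

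Fdps had a mean rho of 0.08 with the other synthesis genes (rank 8975). Its rho was 0.25 to Fdft1 and to Hmgcs1 (0.29 each with thinned cells) and 0.23 to Sqle (0.30). To Npc2 it was 0.24 (0.29) and to Abcg1 -0.30 (-0.23). The counts of Fdps are uncertain because of the near-identical copies named above. With thinned cells the mean rho of Fdps rose to 0.13, above those of Mvd (0.10) and Hsd17b7 (0.08) and near those of Pmvk (0.12) and Dhcr7 (0.14). It stayed below those of Sqle (0.28), Cyp51 (0.28) and Msmo1 (0.25), which like Fdps are seen in most cells. In gated cells with batch and gate means removed Fdps stood at 0.03, the lowest of the synthesis enzymes, and the next, Acat2, at 0.15. Apoe (0.00), Abcg1 (0.01) and Npc2 (0.07) had the lowest means of the uptake and efflux genes, against a median of 0.13 over all genes, and Abca1 stood at 0.14. Stard4 and Npc1 stood above that median, at 0.17 each, and at 0.03 each with thinned cells. Thinning left Hmgcs1 at 0.30 and Fdft1 at 0.29, and brought the low-count members Mvk (0.24 to 0.05) and Acat2 (0.21 to 0.04) close to 0. A weak correlation in such sparse counts is no finding.

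**Figure D4:**
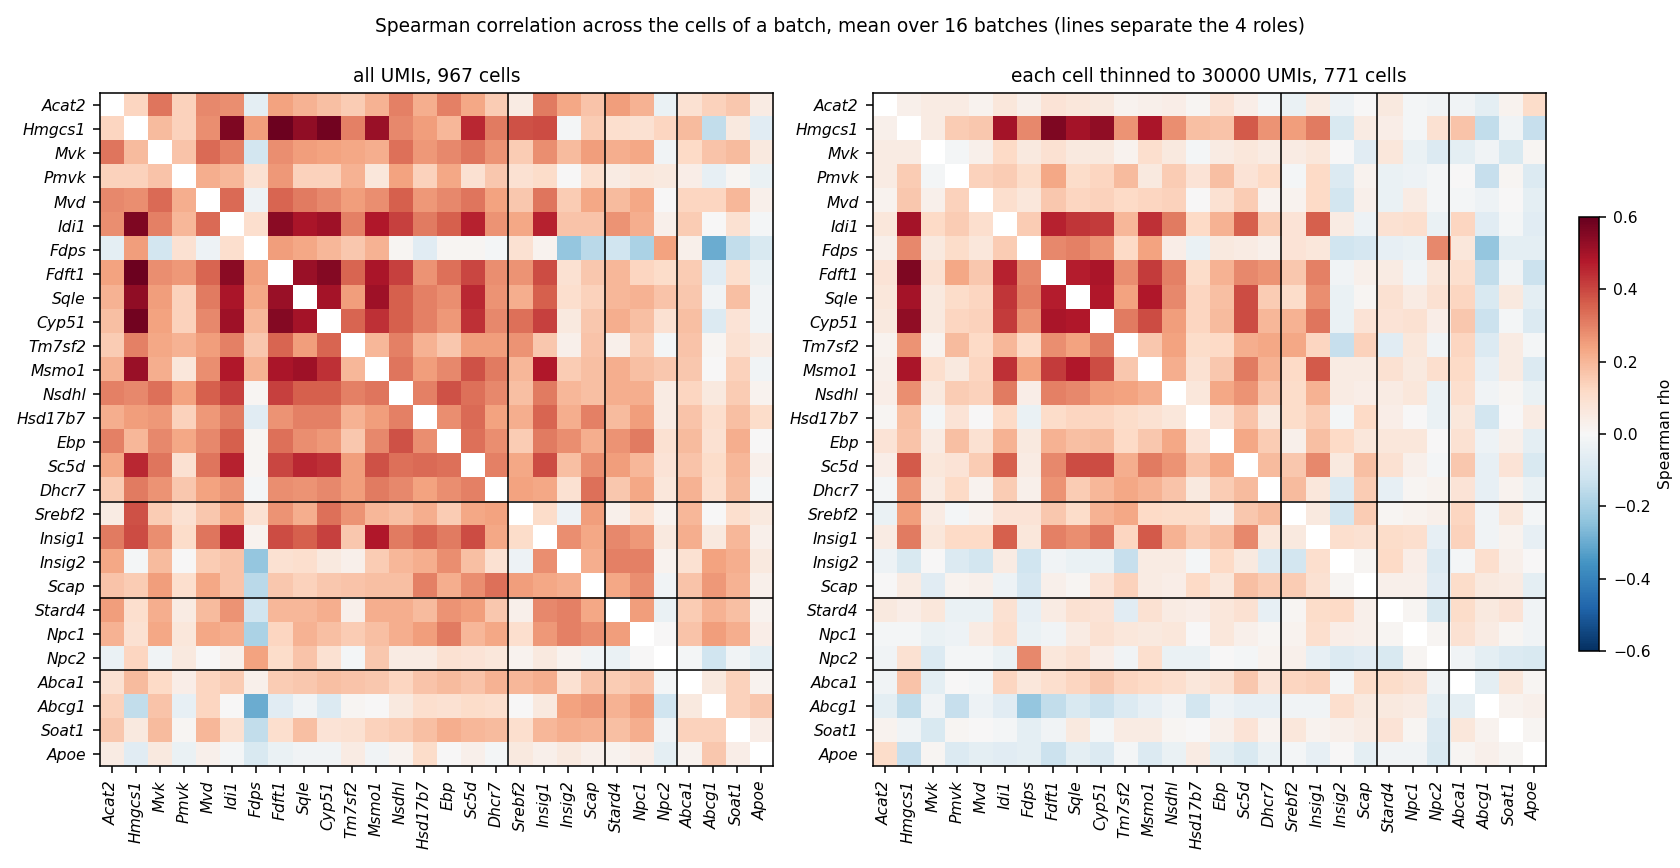
Colour shows the Spearman correlation of each pair of members over the cells of a batch, averaged over batches, with the members in order of role on both axes, for all UMIs (left) and for cells thinned to 30000 UMIs (right). The pairs among Hmgcs1, Idi1, Fdft1, Sqle, Cyp51 and Msmo1, up to 0.59 on the left and 0.56 on the right, stay visible after thinning. Mvk, Pmvk, Mvd, Fdps and Tm7sf2, which lie between them on the axes, correlate less with them. The uptake and efflux genes in the lower right fade.

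**Figure D5:**
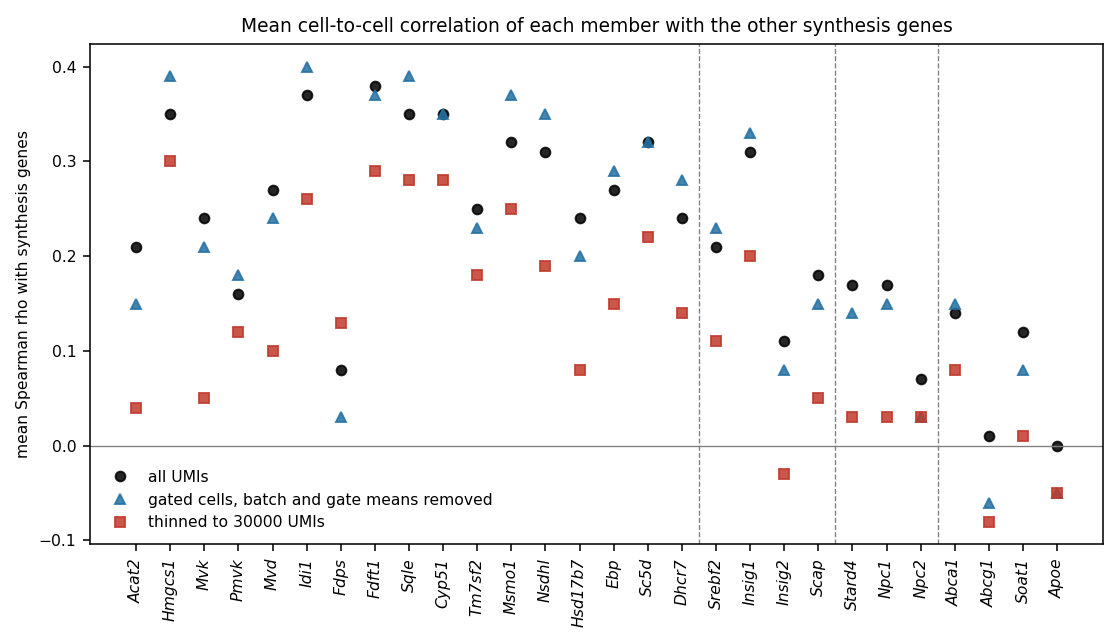
Points give the mean Spearman rho of each member (x axis) with the other synthesis genes, from all UMIs (black circles), from gated cells with batch and gate means removed (blue triangles) and from thinned cells (red squares). Fdft1, Idi1, Cyp51, Sqle and Hmgcs1 lie highest at 0.35 to 0.38 from all UMIs. Among synthesis enzymes Fdps lies at 0.08 from all UMIs, at 0.13 from thinned cells and at 0.03 with batch and gate means removed.

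The Trpm8 and Nmu+Lad1 gates entered a further fit, chosen after the data were seen, in which cells of several gates were assigned to 1 and sums of at least 2 cells were taken (12 and 9 sums); Lss was not tested in it. In Trpm8 cells, against the mean of the 5 gates above, 1 member was higher among 3.23% of all genes and 0 were lower among 2.93%. It was Tm7sf2, at 53.2 to 196 CPM (median 119), with a log2 difference of 0.54 ± 0.16 (adjusted p = 0.0312, higher in 7 of 12 batches). In Nmu+Lad1 cells 1 was higher among 5.43% and 0 were lower among 5.50%. It was Abca1, at 60.5 to 375 CPM (median 108), with a log2 difference of 0.95 ± 0.27 (adjusted p = 0.0129, 6 of 9 batches). For the 2 counts of 0, edgeR gave 2 members in Trpm8 and 0 in Nmu+Lad1 cells at an unadjusted p under 0.05, and DESeq2 called 1 and 0. A single call among 28 members is near or below the background in both gates. Of the 48 cells assigned to Trpm8, 19 passed that gate alone, and 37 of the 69 cells that passed it also passed the Clmp gate. Hmgcs1 had a median of 353 CPM in Trpm8 and 320 in Nmu+Lad1 cells and was called in neither. No member was tested in Pvalb+Vsnl1 cells, of which 10 were found in all.

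Of 38 other cholesterol genes 37 were tested. In Clmp cells 7 were higher and 4 lower, beside 10.3% and 6.70% of all genes. In Sst+Nppb cells 4 were higher and 3 lower, beside 3.31% and 1.36%. In Gzmbl3+Lpar3 cells 3 were higher and 3 lower, beside 6.57% and 6.05%, which is near the background, and in Ntsr1+Chrna3 and Th cells 0 were called in either direction. The largest differences were those of Lcat, which esterifies cholesterol on lipoproteins and was higher in Sst+Nppb cells (log2 3.15 ± 0.57), of Scarb1, a lipoprotein receptor that was higher in Clmp (2.21 ± 0.36) and lower in Sst+Nppb cells (-1.99 ± 0.49), and of the carrier Apod, lower in Clmp cells (-2.07 ± 0.55). Of 18 tested genes of fatty acid synthesis, 5 were higher and 1 lower in Clmp cells, 1 was higher in Sst+Nppb cells, 1 was higher and 2 were lower in Gzmbl3+Lpar3 cells, and 0 were called in the other 2 gates. Beside the shares of all genes just given, the 5 higher in Clmp cells are above the background and the other counts are few genes each. Pnpla3, a lipid droplet protein, was higher in Sst+Nppb (log2 1.21 ± 0.20) and lower in Clmp cells (-0.81 ± 0.19), and Fasn, fatty acid synthase, was higher in Clmp (0.70 ± 0.12) and lower in Gzmbl3+Lpar3 cells (-0.61 ± 0.17).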

How the data were processed

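Counts of UMIs per gene and cell were deposited by the authors, 1 table per batch, from a modified Smart-seq2 protocol per the labels' protocols. The submitters' processing notes name UMI-tools, STAR, featureCounts from Subread, SAMtools and the build Rnor_6.0, and their versions, the strand setting and the treatment of reads shared between gene copies are not given in the sources used here. Without a strand setting, a gene and an overlapping antisense gene cannot be told apart.

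Only cells in which at least 2000 genes were detected entered (the 16 batches held 3812280 to 26065847 UMIs before this filter). A gate gene needed at least 20 CPM and 2 UMIs, and cells of several gates entered none. Raw counts were summed per batch and gate (at least 3 cells, at least 3 sums per gate). The 49 sums were fitted with edgeR 4.0.16 (R 4.3.3): genes filtered by filterByExpr (min.count 10), TMM factors, gate and batch as terms, 29 residual degrees of freedom, quasi-likelihood F-test, Benjamini-Hochberg adjustment, threshold 0.05. Levels and class sums are CPM scaled by the TMM factors. "Higher in n of m batches" compares a gate with the mean of the other gates of its batch. No doublet caller was run, since cells were picked singly. Correlations used log2(CPM + 10).

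On simulated counts for the Clmp gate over 14523 genes the fit recovered 48.0% of genes changed 2-fold and 68.0% of those changed 4-fold, with 4.13% false among its calls. The simulated counts held no batch differences and no gate differences beyond the 200 changed genes, so these rates may not hold for the real counts. Alternatives were RLE factors, no filter, DESeq2 1.42.0, gates of at least 50 CPM, assigned cells, sums of at least 5 cells, thinned cells, no glia-rich cells, each batch left out and, for correlations, a pseudocount of 1 CPM, centring and Pearson's r. The fit with Trpm8 and Nmu+Lad1 and its alternatives were added after the data were seen. The members and the lists of other genes were chosen with earlier results of these data known. Every member called was named, the 3 with the largest change per gate and direction were given with levels, and at most 3 genes were named per other list, by the largest change among those called. Genes named for their correlation were chosen after their values were seen. Some genes of those lists are not reported here.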

Additional observations from a re-analysis of the deposited data

Results flagged for a closer look

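In 8 of 96 groups of 4 to 10 sums (8.33%) the highest or the lowest sum stood far from the rest by Dixon's criterion, which flags about 1 group in 20 by chance. Of these, 5 were in Ntsr1+Chrna3 cells. Batch 34, whose sum held 3 cells, had the lowest level of Pmvk (71.6 CPM, next 122) and the highest of Lss (9.37, next 3.49) and Stard4 (58.9, next 15.2). Abcg1 was highest in batch 30 (43.6 CPM, next 21.8) and Apoe in batch 26 (109, next 59.1). In Gzmbl3+Lpar3 cells Mvk was highest in batch 24 (7.17 CPM in a sum of 3 cells, next 2.83) and Sc5d in batch 22 (258, next 179). In Th cells Abcg1 was highest in batch 33 (24.5 CPM, next 8.60). Why these sums stood apart was not tested.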

How the results depend on the processing

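The number of members called in Clmp cells (15) was 3 with gates of at least 50 CPM, 8 with cells of several gates assigned and 9 with assigned cells in sums of at least 2 cells, a setting chosen after the data were seen. In Sst+Nppb cells (8) it was 5 with sums of at least 5 cells and 5 with thinned cells. In Ntsr1+Chrna3 cells (4) it was 8 with no filter, 8 with DESeq2, 0 with gates of at least 50 CPM (3 sums left), 7 with sums of at least 5 cells, 1 with thinned cells and 2 without glia-rich cells. In Gzmbl3+Lpar3 cells (6) it was 1 with sums of at least 5 cells, 2 with thinned cells and 2 without glia-rich cells. In Th cells (1) it was 0 with RLE factors, 4 with no filter, 3 with DESeq2, 0 with thinned cells, 0 without glia-rich cells and 3 with assigned cells in sums of at least 2 cells, and sums of at least 5 cells gave no value. In the added fit, members called in Trpm8 cells (1) were 2 with no filter and 2 with DESeq2, and those in Nmu+Lad1 cells (1) were 2 with no filter. Fdps in Gzmbl3+Lpar3 cells reversed to -0.02 with gates of at least 50 CPM. Thinned cells brought the median correlation among synthesis genes from 0.28 to 0.15 and that with uptake and efflux genes from 0.11 to -0.01, a reversal of sign to a value near 0. The median over all pairs of genes fell too, from 0.16 to 0.02. Thinning tested 23 of the 29 members. Beyond such construction the causes were not tested.

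Leaving out each batch gave 13 to 15 members in Clmp, 5 to 9 in Sst+Nppb, 2 to 6 in Ntsr1+Chrna3, 1 to 7 in Gzmbl3+Lpar3, 0 to 2 in Th and 12 to 17 in the test for any difference, and medians of 0.27 to 0.29 and 0.10 to 0.12 for the 2 correlations. RLE and DESeq2 scaling moved the median of all genes by under 0.1. Batch was a term in every fit, so gates were compared within batches throughout. Depth limits Lss, Mvk, Mvd, Acat2, Abcg1 and Soat1, which had a median of at most 16.2 CPM in every gate.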
